A study of Mus musculus with 33 samples.

Results

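The genes described here are 10 components of the Notch pathway, chosen by symbol from a table of 17120 genes, and all 10 were present and tested. They comprised the receptors Notch1, Notch2 and Notch3, the ligands Jag1 and Jag2, the target genes Hes1, Hey1, Hey2 and Heyl, and the feedback inhibitor Nrarp. Mouse embryonic stem cells (mESCs) from ScxGFP tendon reporter mice were grown as embryoid bodies with the BMP inhibitor LDN-193189, then with LDN-193189 and the Wnt agonist CHIR, and were collected at D6 as paraxial mesoderm (PM). From D6 the cells were kept as a monolayer with TGFβ1, the hedgehog agonist SAG and FGF2 and with a retinoid ligand. The tendon protocol used CD1530, which activates retinoic acid receptor gamma, and the fibrocartilage protocol used AGN 193109 (AGN), which as an inverse agonist holds the receptors' activity down. Bulk RNA was sequenced at 5 time points of each condition from D6.25 to D10, which with PM gave 11 groups of 3 libraries. All groups shared the stem cell background and the D0 to D6 culture, for which the study's optimised protocol also lists AGN. No arm with TGFβ1 and SAG but without a retinoid ligand was analysed here, and the step from PM to D6.25 changed medium and ligand and, by the labels, went from embryoid bodies to monolayer, which cannot be told apart. The study calls the replicates biological and used 3 ScxGFP+ stem cell lines, and which line each library came from is not given in the sources used here. The p-values thus set a difference against the spread between these libraries, which may not cover the spread between lines.

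Notch receptors are membrane proteins that are cleaved after binding a ligand of the Jagged or Delta type on a neighbouring cell. The released intracellular domain enters the nucleus, binds the DNA-binding protein RBPJ and activates genes of the Hes and Hey families, which encode transcriptional repressors. In the embryo the pathway drives the segmentation of paraxial mesoderm and the differentiation of arteries and their mural cells, and it restrains several skeletal lineages.

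Library totals ranged from 17116084 to 38120841 counts with a median of 19899242, and the smallest count of any of the 10 genes in any library was 37. Levels are CPM, each library's count of a gene relative to its total count, with TMM scaling of the totals (TMM CPM), given as mean ± SD of 3 libraries, and a gene was called at an edgeR quasi-likelihood p-value under 0.05 after Benjamini-Hochberg adjustment over all 17120 genes. Replicate 1 of CD1530 D6.75 stood apart in long genes. Across 1549 genes with exons of at least 9.57 kb in total, its values lay a median of -0.33 log2 units from those of the other replicates of its group, and the next lowest libraries lay at -0.09. The ligand targets Rarb and Cyp26a1, a receptor gene and a retinoic acid degrading enzyme, were higher with CD1530 at every time point. The differences were 2.04 ± 0.33 and 0.85 ± 0.05 log2 units (SE) at D6.25 and 5.63 ± 0.14 and 6.11 ± 0.08 at D10. Cyp26a1 also rose at first with AGN, from 0.399 ± 0.180 TMM CPM in PM to 41.0 ± 1.57 at D6.25 and 71.5 ± 1.11 at D6.75. With AGN it was at 2.45 ± 0.263 at D10. Of the 8 measured paraxial mesoderm markers, PM held T at 79.0 ± 4.01, Tbx6 at 9.56 ± 0.772 and Msgn1 at 3.38 ± 0.607 TMM CPM. Mesp1 and Mesp2 were under 1, and Meox1, Tcf15 and Uncx were not. The neural and stem cell gene Sox2 was at 536 ± 6.44.

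The genes were positioned on GRCm38 with GENCODE M21. Notch1 lies on chromosome 2 (26457903 to 26516663), Notch2 on chromosome 3 (98013527 to 98150361) and Notch3 on chromosome 17 (32120820 to 32166852). Jag1 lies on chromosome 2 (137081456 to 137116644) and Jag2 on chromosome 12 (112907819 to 112929776). Hes1 is on chromosome 16 (30064384 to 30067796), Hey1 on chromosome 3 (8663359 to 8667256), Hey2 on chromosome 10 (30832359 to 30842801), Heyl on chromosome 4 (123233556 to 123249875) and Nrarp on chromosome 2 (25180758 to 25183339). Reads were counted on exons with a strand setting that is not given in the sources used here, and 79.43% of the exonic length of Nrarp is shared with the antisense gene Gm38287. The Nrarp counts may thus include reads of that transcript, or lack reads that overlap both genes. The shared part was 10.41% for Notch1, 6.03% for Notch3 and 5.02% for Notch2, and the other 6 genes had none.

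RefSeq promoter windows, the 250 bases before the start on GRCm38.p6, were available for 7 of the 10 genes: Notch1, Notch2, Notch3, Jag1, Jag2, Hey2 and Nrarp. The windows were searched on both strands for the RBPJ core TGGGAA and its extended form CGTGGGAA, which contains the core, and for the E-box CACGTG. They were also searched for an exact form of the direct repeat bound by retinoic acid receptors, which is AGGTCA, any 5 bases and AGGTCA again. Of 32851 windows of that length, 21.6% held the core, 0.636% the extended form, 6.02% the E-box and 0.00913% the direct repeat. The core and extended forms were found in the Hey2 window alone among the 7, on the minus strand relative to the gene at 207 to 200 bases before the start, the E-box in the Nrarp window alone at 108 to 103 bases before the start, and the direct repeat in none. The stretches around these matches, with 30 bases on each side, are shown in the direction of each gene because they place the matched letters in context, with the match in capitals. They lie at chr10:30842953-30843020 (minus strand) for Hey2 and chr2:25180620-25180685 (plus strand) for Nrarp. A match describes the letters in the window and is not a measured binding site. The exact direct repeat was so rare over all windows that its absence from these 7 could not inform on receptor sites.
Hey2: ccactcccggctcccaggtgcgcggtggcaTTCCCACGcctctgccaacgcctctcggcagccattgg
Nrarp: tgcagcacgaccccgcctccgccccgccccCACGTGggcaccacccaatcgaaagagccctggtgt

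The first comparison asks how the pathway changed by the first time point of induction, at D6.25 against PM. Of the 10 genes, 9 rose and 1 fell with CD1530, and 9 rose and none fell with AGN, where 67.8% and 68.1% of all genes were called (34.5% higher and 33.3% lower with CD1530, 35.0% and 33.1% with AGN). The median log2 fold change of the 10 genes was 0.80 with CD1530 and 0.85 with AGN, against 0 over all genes in both. Both comparisons share the PM libraries. In bulk RNA, fewer or more cells of a type and less or more RNA per cell cannot be told apart, which holds for every result given here.

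The largest of these rises were in the 3 Hey genes. Heyl was at 5.50, 5.76 and 5.22 TMM CPM in the PM libraries, at 46.0, 49.9 and 46.2 in CD1530 D6.25 and at 50.9, 52.0 and 48.7 in AGN D6.25. Both conditions were far above PM without overlap, and Heyl rose by 3.10 ± 0.07 log2 units with CD1530 (adjusted p = 5.21e-32) and by 3.20 ± 0.07 with AGN (adjusted p = 1.77e-32). Hey2 was lowest of all in PM, at 2.01, 2.46 and 2.05, and stood at 16.1, 14.1 and 14.1 in CD1530 D6.25 and at 13.8, 16.5 and 16.5 in AGN D6.25. Its rise was 2.76 ± 0.13 and 2.84 ± 0.13 log2 units (adjusted p = 2.71e-21 and 9.49e-22). Hey1 was at 11.6, 12.9 and 12.4 in PM, and reached 69.3, 65.2 and 64.9 with CD1530 and 66.5, 63.1 and 64.9 with AGN. These were its highest values of the time course, 2.43 ± 0.07 and 2.40 ± 0.07 log2 units above PM (adjusted p = 7e-30 and 1.42e-29).

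Hes1 encodes a repressor that responds to several pathways besides Notch, and its rise was smaller. It went from 42.4 ± 1.23 TMM CPM in PM to 80.1 ± 3.34 with CD1530 and 79.4 ± 4.27 with AGN, which is 0.92 ± 0.08 and 0.90 ± 0.08 log2 units (adjusted p = 2.33e-11 and 3.67e-11). Nrarp, which limits Notch signalling by promoting loss of the receptor's intracellular domain, rose from 6.77 ± 0.791 to 10.2 ± 0.311 and 11.7 ± 0.582, or by 0.59 ± 0.12 and 0.79 ± 0.12 log2 units. The receptors rose by between 0.43 ± 0.07 (Notch3, CD1530) and 0.87 ± 0.12 log2 units (Notch2, CD1530). Jag1 rose by 0.74 ± 0.05 with CD1530 and 0.95 ± 0.05 with AGN. Jag2 was the exception, at 15.2 ± 0.119 in PM and 11.6 ± 1.21 in CD1530 D6.25, where it fell by 0.38 (SE 0.09, adjusted p = 0.00013). In AGN D6.25 Jag2 was at 13.5 ± 1.31, with a log2 fold change of -0.18 ± 0.08 that did not pass (adjusted p = 0.0601, and 0.0177 to 0.295 over the alternatives). It was called without replicate 1 of AGN D6.25, at -0.25 (adjusted p = 0.0177), with DESeq2 size factors, at -0.20 (adjusted p = 0.0342), and with DESeq2 (adjusted p = 0.0422). The AGN D6.25 libraries all lay below those of PM.

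At D10 all 10 genes were called against PM in both conditions, as were 83.2% of all genes with CD1530 (43.3% higher, 39.9% lower) and 82.0% with AGN (41.6% higher, 40.4% lower). The median log2 fold change of the 10 was 1.22 and 1.21, against 0.04 and 0 over all genes. With library size as the only scaling the median over all genes moved by -0.11 and -0.15 log2 units, and each of the 10 genes had the same direction and call. The 3 receptors and both ligands were higher than in PM in each condition, from 0.62 ± 0.08 (Jag2, AGN) to 1.91 ± 0.12 log2 units (Notch2, CD1530). Nrarp fell below PM in both, by 1.06 (SE 0.15) with CD1530 and 1.20 (SE 0.16) with AGN. Hey1 was the 1 member that ended on different sides of PM, since it fell by 0.52 (SE 0.09, adjusted p = 1e-06) with CD1530 and rose by 0.87 ± 0.08 (adjusted p = 1.28e-13) with AGN.

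**Figure D1:**
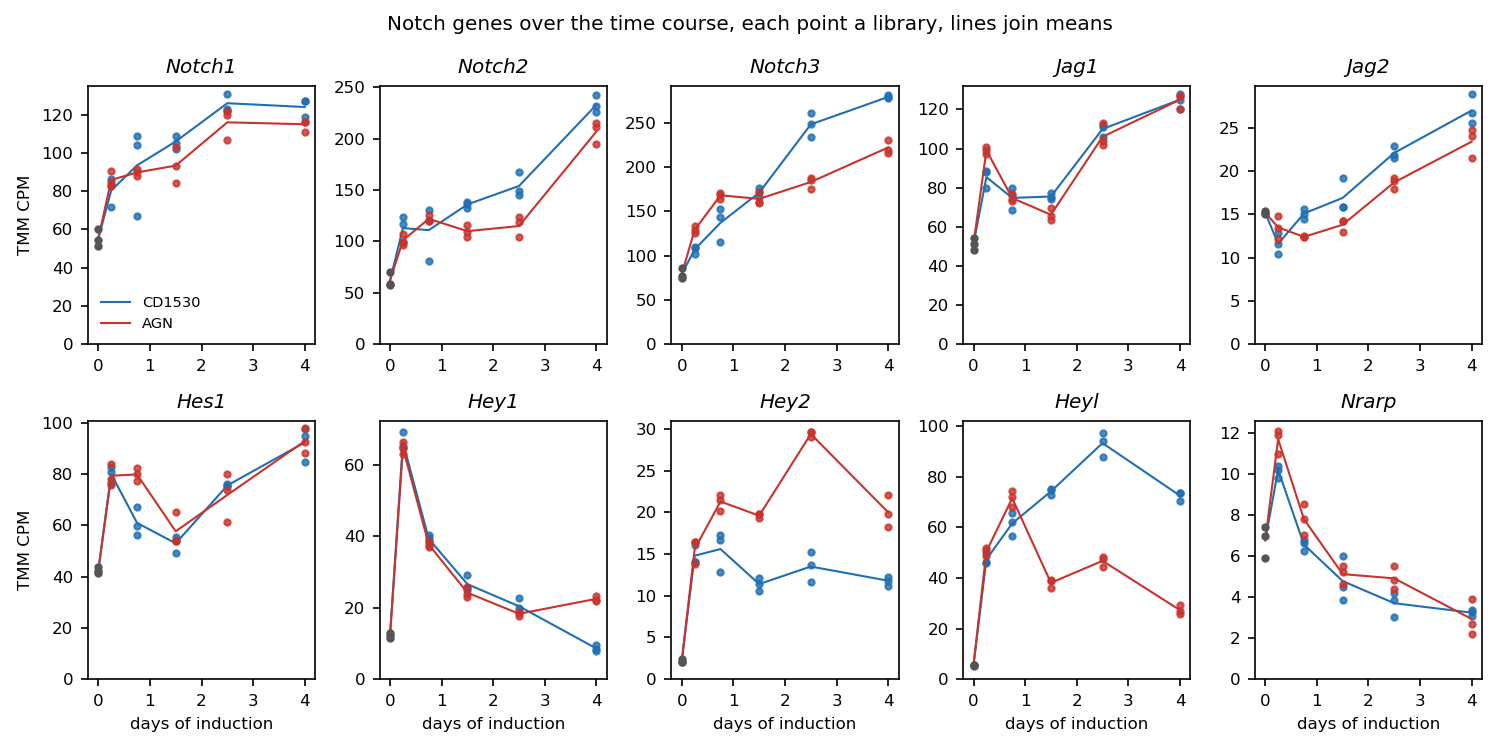
TMM CPM of the 10 Notch genes (y axis, linear, from 0, a scale for each gene) against days of induction (x axis, 0 is PM at D6 and 4 is D10), with each point a library, PM in grey, CD1530 in blue and AGN in red, and lines joining the group means. Heyl, Hey2 and Hey1 rise sharply from PM to D6.25 in both conditions, Heyl and Hey2 then part between conditions, and Hey1 parts at D10.

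Levels per kb of exon allow the genes to be set side by side. The length covers every annotated exon of a gene, whether or not it is used in these cells, and the order of the genes depends on it. In PM, Hes1 was the highest at 20.8 ± 0.601 CPM per kb, followed by Notch3 (9.80 ± 0.741) and Jag1 (8.81 ± 0.524), whose libraries overlapped, and Hey2 was the lowest at 0.473 ± 0.0539. Hes1 was the highest in all 11 groups, with 45.4 ± 3.31 in CD1530 D10 and 45.6 ± 2.43 in AGN D10, and Notch3 was next at D10, at 34.5 ± 0.157 and 27.4 ± 0.905. At D6.25 Hey1 was next to Hes1 in both conditions, at 20.3 ± 0.751 and 19.9 ± 0.516 CPM per kb. By D10 Hey1 was at 2.62 ± 0.252 in CD1530, overlapping with Hey2 (2.56 ± 0.124), and at 6.88 ± 0.207 in AGN. Nrarp was last at D10 in both conditions, at 1.26 ± 0.0567 and 1.14 ± 0.342 CPM per kb. In CD1530 D10, Notch2 (21.6 ± 0.781) and Jag1 (21.4 ± 0.735) overlapped, and every other pair of neighbours at D10 was separate apart from Hey1 and Hey2 in CD1530.

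Within families, Notch3 made up 45.1% to 57.0% of the summed Notch1, Notch2 and Notch3 level per kb in group means, and Notch1 13.5% to 19.9%. Jag1 made up 80.1% to 89.8% of the Jag1 and Jag2 sum. Shares of this kind do not depend on library scaling, but they do depend on the annotated exon lengths.

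The second comparison asks where the agonist and the inverse agonist arms differed. At D6.25, 2 of the 10 genes were called and at D6.75 5, against 1.92% and 18.0% of all genes. At D7.5 there were 4 (26.9% of all genes), then 6 at D8.5 (40.0%), and at D10 5 (46.6%). In CD1530 the called genes were lower at D6.25 (2 genes, 0.695% of all genes lower and 1.23% higher) and mostly lower at D6.75 (4 lower and 1 higher, against 10.0% and 7.94%). They were mostly higher at D7.5 (3 higher and 1 lower, against 15.2% and 11.8%) and D8.5 (4 and 2, against 20.4% and 19.6%). Libraries of the 2 conditions did not overlap for 3 of the 10 genes at D6.25, for 6 and then 5 at the next time points, and for 7 at D8.5 as at D10. Over all genes the shares without overlap were 21.1%, 26.3%, 42.5%, 51.4% and 57.0% in that order. At D10 the count of members called was thus close to the share over all genes. The direction at D10 was mixed, with 3 genes higher and 2 lower in CD1530 (22.7% and 24.0% of all genes), and the median of the 10 was 0.13 against -0.02 over all genes.

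**Figure D2:**
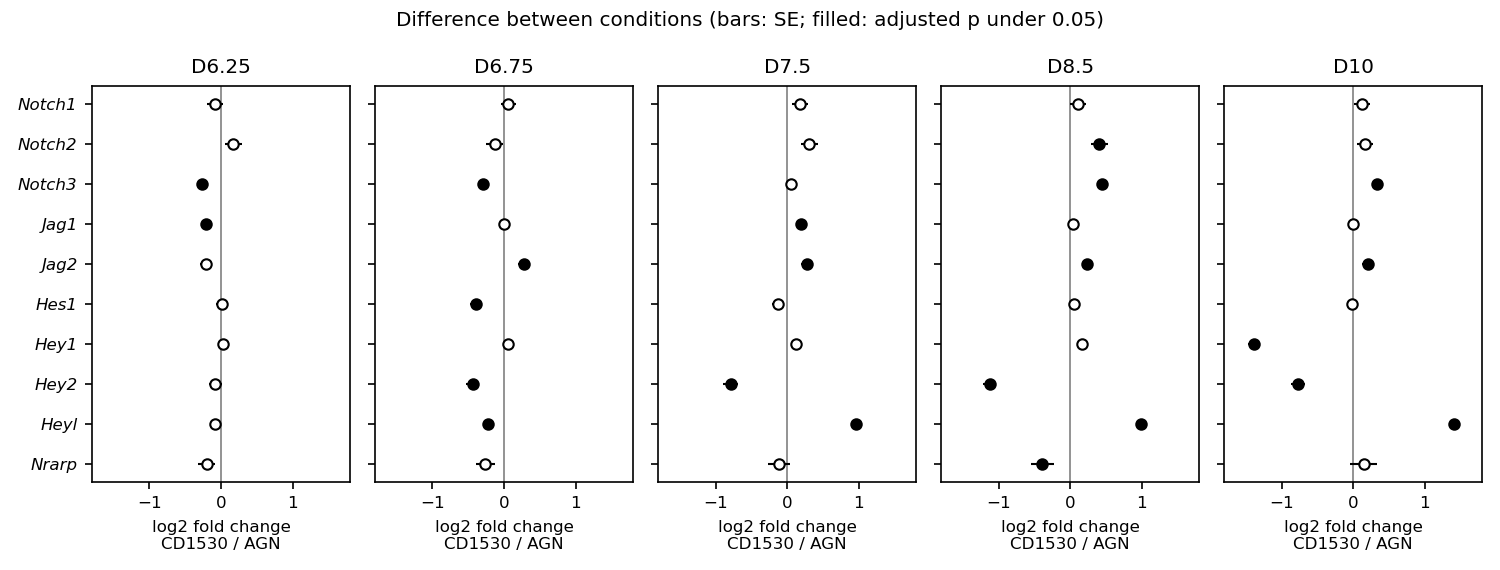
Log2 fold change of CD1530 over AGN (x axis, bars are SE) for each of the 10 genes at the 5 time points, with filled points for an adjusted p under 0.05. Points lie near 0 at D6.25. In CD1530 Hey2 is lower from D6.75 and Heyl is higher from D7.5, joined at D10 by Hey1, which is lower.

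Heyl, Hey2 and Hey1 showed the largest differences among the 10 genes. Heyl was slightly lower with CD1530 at D6.75, at 56.8, 62.3 and 65.7 TMM CPM against 72.1, 68.1 and 74.5 with AGN, by -0.22 ± 0.05 log2 units (adjusted p = 0.00191), a call that was lost when only those 2 groups were fitted (adjusted p = 0.126, range over the alternatives 0.000417 to 0.126). At D7.5 the order had turned, with 72.8, 74.9 and 75.1 in CD1530 and 39.2, 38.8 and 36.2 in AGN. From then on the conditions stayed apart without overlap. At D8.5 Heyl was at 93.4 ± 4.80 in CD1530 and 46.8 ± 2.01 in AGN, and it then fell by 0.36 (SE 0.05) and 0.78 (SE 0.06) log2 units. At D10 Heyl was at 73.6, 73.6 and 70.6 in CD1530 and at 25.9, 26.9 and 29.2 in AGN. The difference was 0.96 ± 0.05 at D7.5, 0.99 ± 0.05 at D8.5 and 1.41 ± 0.06 log2 units at D10 (adjusted p = 3.47e-18, 1.66e-19 and 2.6e-23). Within AGN, Heyl fell by 0.91 (SE 0.05) from D6.75 to D7.5, whereas within CD1530 it rose by 0.27 ± 0.05 over the same step. The change of the difference over that step was itself called, at 1.18 ± 0.07 log2 units (adjusted p = 2.51e-15).

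Hey2 differed in the opposite direction. It was at 12.9, 17.3 and 16.7 TMM CPM in CD1530 D6.75 and at 21.5, 20.2 and 22.1 in AGN D6.75, and at 13.7, 15.2 and 11.6 in CD1530 D8.5 against 29.6, 29.1 and 29.6 in AGN D8.5. All AGN libraries were above all CD1530 libraries at each time point from D6.75. The log2 fold change of CD1530 against AGN was -0.44 ± 0.09 at D6.75, -0.79 ± 0.10 at D7.5, -1.12 ± 0.09 at D8.5 and -0.77 ± 0.10 at D10, with adjusted p from 0.000261 at D6.75 down to 1.4e-13 at D8.5. In AGN Hey2 reached 29.4 ± 0.300 at D8.5 and then fell by 0.56 (SE 0.09) to 20.0 ± 1.95 at D10, while the CD1530 groups stayed between 11.4 ± 0.760 and 15.6 ± 2.37.

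Hey1 fell in step in both conditions until D8.5 and then parted. It was at 19.8, 22.6 and 18.9 TMM CPM in CD1530 D8.5 and at 18.5, 18.8 and 17.6 in AGN D8.5, where the libraries of AGN lay just below those of CD1530 (log2 fold change 0.16 ± 0.07, adjusted p = 0.0669). This difference was called without replicate 3 of CD1530 D8.5 (0.21, adjusted p = 0.0291) and with library size as the only scaling (0.0298), in a range of 0.0291 to 0.449. At D10 it was at 9.45, 7.81 and 8.43 in CD1530 and at 21.9, 22.2 and 23.2 in AGN. The CD1530 libraries were all lower, by -1.39 ± 0.08 log2 units (adjusted p = 4.58e-18). From D8.5 to D10 Hey1 fell by 1.25 (SE 0.08) with CD1530 and rose by 0.29 ± 0.07 with AGN, and the difference changed by -1.55 ± 0.11 (adjusted p = 1.14e-14).

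The make-up of the Hey family differed accordingly. Of the summed Hey1, Hey2 and Heyl level per kb, Hey1 made up 70.9% ± 1.14 in PM, and 62.0% ± 1.01 in CD1530 D6.25 and 59.9% ± 1.39 in AGN D6.25, where the 2 conditions had a like make-up. At D10 Heyl made up 73.3% ± 1.15 in CD1530 and 32.2% ± 1.54 in AGN, and Hey1 13.5% ± 1.07 and 41.5% ± 1.04. Hey2 held 13.2% ± 0.250 and 26.3% ± 2.46. The family sum was 5.32 ± 0.277 CPM per kb in PM, 32.8 ± 0.866 and 33.1 ± 0.160 at D6.25, and 19.4 ± 0.578 and 16.6 ± 0.425 at D10 for CD1530 and AGN.

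**Figure D3:**
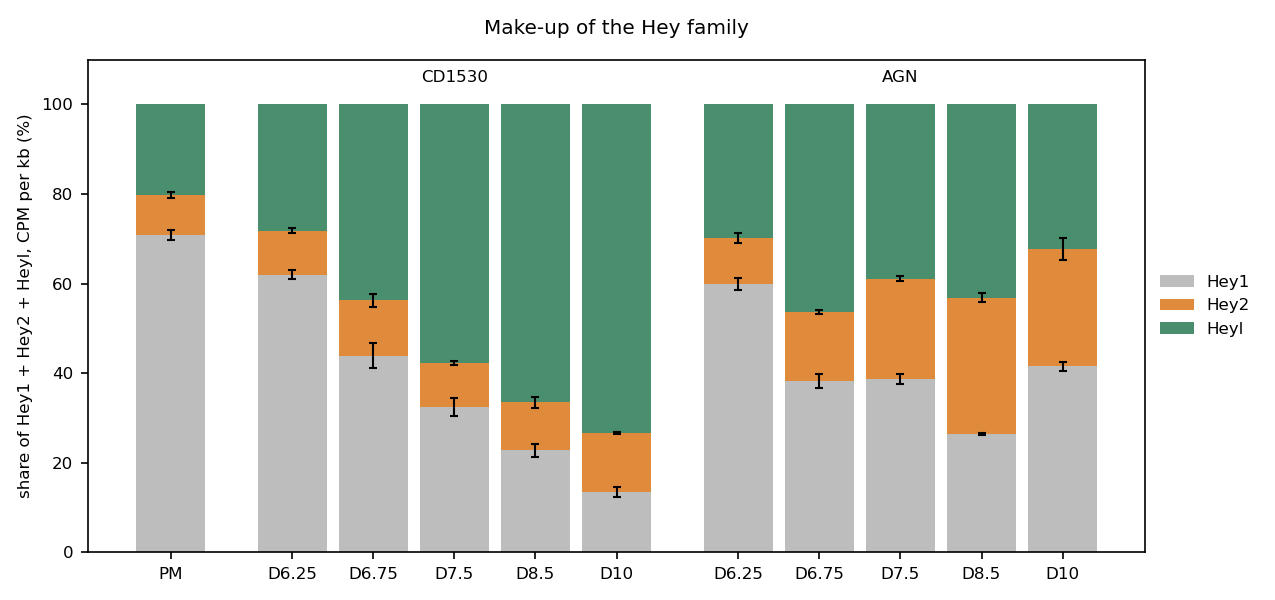
Stacked bars of the mean share (y axis, %) of Hey1, Hey2 and Heyl in their summed CPM per kb for PM and the 5 time points of each condition, with bars for the SD of the Hey1 and Hey2 shares over 3 libraries at the upper edge of each. The Heyl share grows to 73.3% in CD1530 D10, while in AGN D10 it is 32.2% and Hey1 is the largest part at 41.5%.

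Among the receptors, Notch3 changed sides over time. Notch3 is the receptor known for its place in mural cells of vessels. At D6.25 it was at 102, 109 and 110 TMM CPM with CD1530 and at 129, 126 and 133 with AGN, lower by -0.27 ± 0.06 log2 units (adjusted p = 0.0161). That call was lost without replicate 1 of CD1530 D6.25 (adjusted p = 0.113), replicate 1 of AGN D6.25 (0.0594) or replicate 3 of AGN D6.25 (0.0979), within a range of 5.9e-07 to 0.113 over all alternatives. At D6.75 it was at 115, 143 and 153 against 171, 164 and 168 (-0.29 ± 0.06, adjusted p = 0.00111), and 1 of the CD1530 values is the library that stood apart in long genes. Leaving that library out kept the call, which was lost with only those 2 groups in the fit (adjusted p = 0.105, range 1.32e-05 to 0.105). At D8.5 Notch3 was higher with CD1530, at 234, 248 and 261 against 185, 175 and 188, by 0.44 ± 0.06 (adjusted p = 9.52e-07). At D10 it was at 279, 278 and 281 against 216, 230 and 219, by 0.33 ± 0.06 (adjusted p = 4.41e-05).

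Notch2 was called at D8.5 alone, at 145, 149 and 168 TMM CPM in CD1530 and 124, 104 and 119 in AGN, a difference of 0.41 ± 0.12 log2 units (adjusted p = 0.00669). At D7.5 its libraries were also separate, at 133, 138 and 136 against 109, 116 and 104, with a difference of 0.31 ± 0.12 that did not pass (adjusted p = 0.0558). That difference was called with only those 2 groups in the fit (adjusted p = 3.55e-08) and with DESeq2 (0.0423), in a range of 3.55e-08 to 0.17. The libraries did not overlap at D10 either, at 232, 226 and 242 against 195, 211 and 215, but the difference of 0.17 ± 0.11 did not pass (adjusted p = 0.235). Notch1, the receptor with a main part in segmentation and in T cells, passed at no time point, and its log2 fold changes lay between -0.09 ± 0.11 and 0.18 ± 0.11. Both genes were spread widely in CD1530 D6.75, where replicate 1 gave 67.3 for Notch1 and 81.2 for Notch2 and the others 104 and 109 and 121 and 131. With only the 2 D10 groups in the fit, both were called at D10 (adjusted p = 0.00183 for Notch1 and 5.99e-06 for Notch2, against ranges of 0.00183 to 0.585 and 5.99e-06 to 0.451 over the alternatives). The same fit called Notch1 at D7.5 (adjusted p = 0.023, range 0.023 to 0.626) and at D8.5 (0.0334, range 0.0334 to 0.773). Without replicate 1 of CD1530 D6.75, Notch1 was higher with CD1530 at D6.75 by 0.25 (adjusted p = 0.022, range 0.022 to 0.911).

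The ligand Jag1, needed for arterial and mural cell development, did not pass at D10. It was at 120, 125 and 128 TMM CPM in CD1530 D10 and at 127, 127 and 120 in AGN D10, with overlapping libraries and a log2 difference of -0.0038 ± 0.05 (adjusted p = 0.961). It was lower with CD1530 at D6.25 (79.8, 88.1 and 88.3 against 97.4, 99.1 and 101) by -0.21 ± 0.05 (adjusted p = 0.0117) and higher at D7.5 (75.3, 74.0 and 77.1 against 63.4, 69.8 and 65.5) by 0.19 ± 0.05 (adjusted p = 0.00524). The D6.25 call was lost without replicate 1 of CD1530 D6.25 (adjusted p = 0.157) or replicate 3 of AGN D6.25 (0.0785), in a range of 0.000307 to 0.157.

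Jag2 was low throughout and was higher with CD1530 from D6.75, by 0.28 ± 0.08 log2 units at D6.75 and at D7.5 (adjusted p = 0.0166 and 0.00787), by 0.24 ± 0.08 at D8.5 (0.0106) and by 0.21 ± 0.08 at D10 (0.0236). At D10 its libraries were at 26.7, 28.9 and 25.5 TMM CPM in CD1530 and at 24.1, 24.7 and 21.5 in AGN, close to each other but not overlapping. Each of the 4 calls was lost when certain libraries were left out. They were replicate 1 of CD1530 or replicate 1 of AGN at D6.75 (adjusted p = 0.0505 in each case), replicate 1 of CD1530 at D7.5 (0.112), replicate 3 of CD1530 at D8.5 (0.0514), and replicate 2 of CD1530 (0.138) or replicate 3 of AGN (0.16) at D10. The adjusted p ranged from 0.0114 to 0.0725 at D6.75, from 0.00618 to 0.112 at D7.5, between 0.00393 and 0.0514 at D8.5 and between 0.00558 and 0.16 at D10.

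Hes1 was called between conditions at D6.75 alone. It was at 67.1, 56.2 and 59.6 TMM CPM in CD1530 and at 79.9, 77.5 and 82.4 in AGN, lower with CD1530 by -0.39 ± 0.08 log2 units (adjusted p = 0.000393). At D10 its values were 84.8, 94.9 and 97.6 against 98.0, 88.1 and 92.5, interleaved, with a log2 difference of -0.01 ± 0.08 (adjusted p = 0.952). Nrarp was at 3.02, 3.88 and 4.19 in CD1530 D8.5 and at 4.39, 4.84 and 5.51 in AGN D8.5, a difference of -0.39 ± 0.16 (adjusted p = 0.0433). This call was lost in 5 of 13 alternatives, among them without replicate 1 (adjusted p = 0.246) or 2 (0.0628) of CD1530 D8.5 and without replicate 2 (0.0732) or 3 (0.163) of AGN D8.5, in a range of 0.0281 to 0.246.

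Whether the difference between conditions changed over time was tested as an interaction of condition and time over the 5 time points. It was called for 7 of the 10 genes, namely Notch3, Jag1, Jag2, Hes1, Hey1, Hey2 and Heyl, and for 48.8% of all genes. Notch1 (adjusted p = 0.601), Notch2 (0.0724) and Nrarp (0.348) did not pass.

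From D6.25 to D6.75, 7 of the 10 genes were called with CD1530 and 6 with AGN (45.9% and 43.7% of all genes). From D6.75 to D7.5 there were 6 and 5 (34.2% and 30.3%), from D7.5 to D8.5 7 and 8 (36.5% and 42.1%), and from D8.5 to D10 7 and 9 (57.3% and 59.4%). Hey1 and Nrarp declined after their D6.25 peak. Hey1 fell at each of the first 3 steps in both conditions, by 0.76, 0.57 and 0.37 with CD1530 (SE 0.06, 0.06 and 0.07) and by 0.78, 0.64 and 0.40 with AGN (SE 0.06, 0.06 and 0.07). Nrarp fell by 0.63 (SE 0.12) and 0.58 (SE 0.12) over the first step and reached 3.24 ± 0.146 and 2.93 ± 0.884 TMM CPM at D10. Jag1 rose by 0.54 ± 0.05 with CD1530 and 0.69 ± 0.05 with AGN from D7.5 to D8.5, and Notch2 by 0.60 ± 0.12 and 0.84 ± 0.12 from D8.5 to D10.

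Over single steps the change of the difference was called for 2 genes from D6.25 to D6.75 (Jag2 and Hes1, against 4.82% of all genes) and for 2 from D6.75 to D7.5 (Notch3 and Heyl, 9.00%). It was called for 1 from D7.5 to D8.5 (Notch3, 11.5%) and for 3 from D8.5 to D10 (Hey1, Hey2 and Heyl, 26.8%).

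Of 43 further genes of the pathway, 38 were in the table, and the others (Dlk1, Dlk2, Hes2, Hes3 and Hes5) were not analysed here. Between CD1530 and AGN, 0 of the 38 were called at D6.25, whereas 2 were higher and 8 lower at D6.75. At D7.5 there were 12 higher and 6 lower, 8 and 9 the next time, and 11 and 7 at D10. As shares of the 38 these calls were 0%, 26.3%, 47.4%, 44.7% and 47.4% in order of time, against 1.92%, 18.0%, 26.9%, 40.0% and 46.6% of all genes, and those of D8.5 and D10 were near the share over all genes. The median of the 38 at D10 was 0.06, against -0.02 over all genes. The exceptions in size at D10 were Notch4, Dll1 and Dtx4. Notch4, a receptor of endothelial cells, was at 42.8, 41.2 and 40.2 TMM CPM in CD1530 and 14.3, 16.7 and 15.5 in AGN, higher by 1.42 ± 0.08 log2 units (adjusted p = 1.43e-19). The Delta ligand Dll1, whose exons share 20.55% of their length with A930024N18Rik, was at 6.97, 8.48 and 9.56 against 4.25, 3.79 and 4.04 (1.04 ± 0.14, adjusted p = 1.83e-08), after having been lower with CD1530 at D6.75 (-0.61 ± 0.12). Dtx4, a Deltex family ubiquitin ligase, was at 61.5 ± 1.54 against 11.6 ± 0.935, higher by 2.41 ± 0.09 (adjusted p = 1.42e-24), and had been higher at each time point from D6.75. The libraries of the 2 conditions were separate for all 3 genes.

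Against PM, the 38 genes gave 19 rises and 9 falls at D6.25 with CD1530 and 23 and 10 with AGN, which is 73.7% and 86.8% of them against 67.8% and 68.1% of all genes. The fringe glycosyltransferase Mfng and Dll4, a ligand of arterial and tip cells of the endothelium, were chosen after their values were seen. Dll4 went from 0.392 ± 0.242 TMM CPM in PM to 11.4 ± 1.33 and 11.1 ± 0.493 at D6.25, and Mfng from 1.54 ± 0.606 to 8.60 ± 1.05 and 10.1 ± 0.222. All libraries of both conditions were above PM for both genes. Rbpj, which encodes RBPJ, fell by 0.15 and 0.12 log2 units at D6.25 with CD1530 and AGN (SE 0.04 in both, adjusted p = 0.00222 and 0.0109). Rbpj was also chosen after its values were seen, as were Dll3, an inhibitory ligand of the segmenting mesoderm, and Hes6, which counteracts Hes1. At D8.5 Dll3 was at 2.46, 2.66 and 1.59 in CD1530 against 14.6, 14.3 and 11.6 in AGN (-2.59 ± 0.14, adjusted p = 1.09e-18). Hes6 was at 23.2, 22.8 and 25.4 against 81.3, 75.3 and 75.9 (-1.71 ± 0.06, adjusted p = 2.59e-25). Dll3 and Hes6 were still called lower with CD1530 at D10, by smaller differences. The change of the difference from D8.5 to D10 was called for both.

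**Figure D4:**
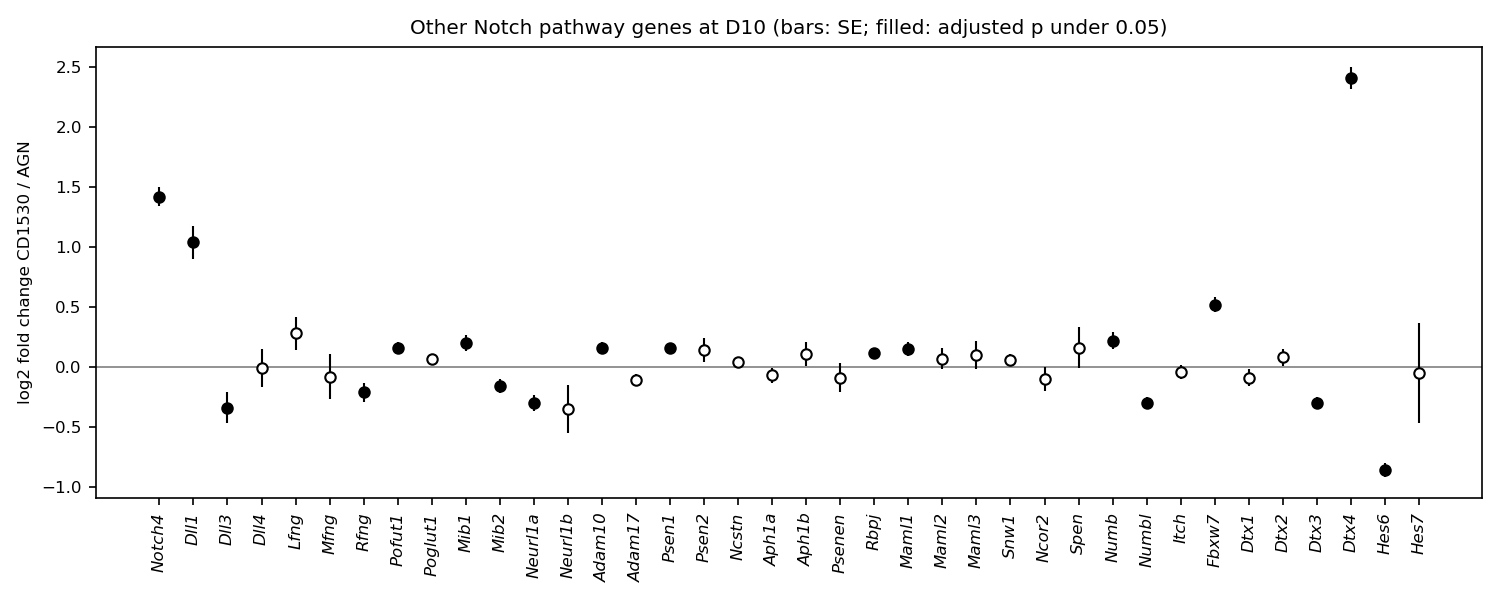
Log2 fold change of CD1530 over AGN at D10 (y axis, bars are SE) for the 38 other Notch pathway genes (x axis), filled where the adjusted p was under 0.05. Dtx4, Notch4 and Dll1 stand above 1, and Hes6 is the lowest at -0.86.

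Several of these genes are known from vessels, so marker levels of other cell types were set beside them. The 12 endothelial markers were all measured, with 5 under 1 TMM CPM in PM (Tie1, Emcn, Sox18, Sox17 and Erg) and none at any later time point. Their sum was 124 to 129 in PM. For CD1530 and AGN it was 370 to 416 and 383 to 385 at D6.25, 616 to 664 and 452 to 478 at D6.75, and 642 to 672 and 426 to 454 at D7.5. It was 397 to 406 and 347 to 355 at D8.5, and 237 to 254 and 326 to 343 at D10. Of the 12 markers, 10 were higher and 1 lower with CD1530 at D6.75 as at D7.5. At D8.5 7 were higher and 3 lower, and at D10 4 were higher and 5 lower. Over all genes 7.94% were higher and 10.0% lower at D6.75, 15.2% and 11.8% at D7.5, and 22.7% and 24.0% at D10. For D8.5 the matching shares were 20.4% (higher with CD1530) and 19.6% (lower). The sum and Heyl thus differed between conditions in the same direction at D7.5 and D8.5, and in opposite directions at D6.75 and D10. At D6.75 Heyl was lower with CD1530, in a call that was lost with only the compared groups in the fit. At D10 Heyl and Notch4 were higher and the sum lower with CD1530. The rise of Hey1, Hey2, Heyl, Notch4 and Dll4 from PM to D6.25 went with a rise of this sum, and also of the mural (59.2 to 235 with CD1530 and 245 with AGN), cartilage (27.2 to 236 in both) and muscle sums (7.84 to 22.2 and 19.6). The part of these cell types in it was not tested.

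The 10 mural or smooth muscle markers summed to 52.8 to 62.9 TMM CPM in PM and 1048 to 1083 and 1194 to 1249 at D10 for CD1530 and AGN, with the mean of Myh11 under 1 in PM and at each time point up to D7.5. The sum was lower with CD1530 at D10 where Notch3 was higher. Of its 10 markers, however, 5 were called higher with CD1530 at D10 (Myh11, Rgs5, Des, Abcc9 and Kcnj8) and 2 lower, with a median log2 fold change of 0.36, against 22.7% and 24.0% of all genes and a median of -0.02. The 9 measured cartilage markers summed to 251 to 257 in CD1530 D10 and 3234 to 3368 in AGN D10, the 10 neural markers to 794 to 806 and 498 to 533, and the 10 tendon markers to 21468 to 22268 and 28657 to 30140. With CD1530 at D10, all 9 cartilage markers were called lower (median log2 fold change -4.1). Of the neural markers 9 were higher and 1 lower (median 3.02), and of the tendon markers 2 were higher and 6 lower (median -0.49). The sum of the 6 measured muscle markers stayed between 4.07 and 36.6 TMM CPM in all libraries. The part of these other cell types in the Hey1, Hey2 and Heyl differences was not tested.

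**Figure D5:**
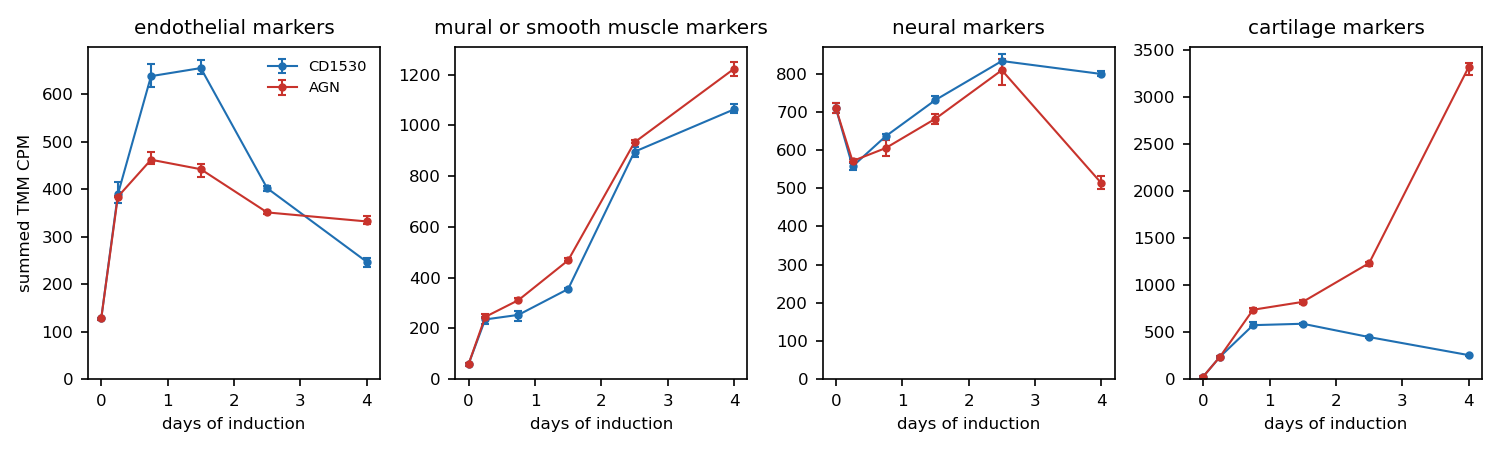
Summed TMM CPM (y axis, linear, from 0) of the endothelial, mural or smooth muscle, neural and cartilage marker lists against days of induction (x axis), points are means of 3 libraries and bars run from the lowest to the highest library. The endothelial sum is higher in CD1530 from D6.75 to D8.5 and lower at D10, and the cartilage sum at D10 lies far higher in AGN.

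Finally, the genes whose time course was most like that of each member were listed by Pearson correlation over the 11 group means of log2(TMM CPM + 1), among 12266 genes whose highest group mean was at least 5 TMM CPM. The groups share the PM start and a common trend over time, so high values are the rule. Heyl was most like Esm1 (r = 0.99), which marks endothelial tip cells, and Gnaz (0.979). Hey1 was most like Exoc3l2 (0.949), and Hey2 was most like Syne1 (0.966) and Exo5 (0.965). For the receptors the closest were Smurf1 (0.99) and Ski (0.989) for Notch1, Mbd2 (0.986) and Acap2 (0.985) for Notch2, and Osbpl3 (0.984) and Kalrn (0.981) for Notch3. Jag1 was closest to Hmgn2-ps1 (0.98) and Ssr1 (0.973), Jag2 to Ubac2 (0.979) and Nfib (0.972), Hes1 to Map3k7 (0.965) and Syvn1 (0.961), and Nrarp to Aff1 (0.967) and Hoxd11 (0.96).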

How the data were processed

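Bulk RNA-seq libraries (paired ends) came from 11 groups with 3 libraries each. The values used are the deposited raw counts, obtained by the authors with STAR on GRCm38 and featureCounts, per the labels and the study's methods. Which annotation was counted, on which strand and how multi-mapping reads were treated is not given in the sources used here. Genes with low counts were absent from the table, since 3 or more libraries of any gene reached 0.611 CPM.

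The tests were run with edgeR 4.0.16 in R 4.3.3 (TMM scaling, robust quasi-likelihood F test, two-sided, 1 fit of 33 libraries with 11 group means and no covariates, 22 contrasts, Benjamini-Hochberg adjustment over 17120 genes), and with DESeq2 1.42.0 as an alternative. The edgeR filter on low expression removed no gene. SE was the log2 fold change divided by the square root of F. No 2 libraries were identical. The scripts were tested on simulated counts. Exon lengths came from GENCODE M21, which matched 17117 of the 17120 gene identifiers. Genes named were the 10 members, pathway genes called between conditions at D6.25 or, with a log2 fold change of at least 1, at D10, the 2 most alike genes for each member without predicted genes (1 of them is not reported here), and Rarb and Cyp26a1. Dll3, Dll4, Hes6, Mfng and Rbpj fall outside this rule and were chosen after their values were seen. The members and all lists were chosen with earlier results of these data known. Alternatives were DESeq2 size factors, library size only, no filter and a stricter filter (over 1 CPM in 3 libraries), a replicate block, only the compared groups, leaving out each library and DESeq2.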

Additional observations from a re-analysis of the deposited data

Results flagged for a closer look

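The difference between CD1530 and AGN changed over time for 7 of the 10 Notch genes, by edgeR's interaction test over the 5 time points with adjustment over all genes. The same test called 48.8% of all genes. The adjusted p was 2.65e-22 for Heyl, 9.28e-16 for Hey1, 1.49e-08 for Notch3, 1.85e-07 for Hey2, 0.000371 for Jag1, 0.00257 for Jag2 and 0.0059 for Hes1, and all 7 were called under each of 37 alternatives.

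Changes of the difference were also called over single steps. From D6.25 to D6.75 Jag2 moved towards CD1530 by 0.48 ± 0.12 log2 units (adjusted p = 0.00941) and Hes1 towards AGN, by -0.41 ± 0.11 (adjusted p = 0.0235). Of 19 alternatives, 2 ended the Jag2 call, without replicate 1 of AGN D6.25 (adjusted p = 0.0561) and with only the compared groups in the fit (0.0587), in a range of 0.00396 to 0.0587. For Hes1 7 did, without replicate 2 or 3 of CD1530 D6.25, AGN D6.25 or CD1530 D6.75 or without replicate 3 of AGN D6.75, in a range of 0.00739 to 0.0708. From D6.75 to D7.5 the change was 0.35 ± 0.09 for Notch3 (adjusted p = 0.0101) and 1.18 ± 0.07 for Heyl (adjusted p = 2.51e-15), and from D7.5 to D8.5 it was 0.37 ± 0.09 for Notch3 (adjusted p = 0.00384). From D8.5 to D10 it was -1.55 ± 0.11 for Hey1 (adjusted p = 1.14e-14), 0.42 ± 0.08 for Heyl (adjusted p = 6.65e-05) and 0.35 ± 0.14 for Hey2 (adjusted p = 0.0472), the last of which was lost in 11 of 19 alternatives with a range of 0.00728 to 0.179. They were both DESeq2 alternatives and leaving out replicate 1 or 3 of CD1530 D8.5, any replicate of AGN D8.5, replicate 1 or 2 of CD1530 D10, or replicate 1 or 3 of AGN D10. The call of Notch3 from D6.75 to D7.5 was lost with only the compared groups in the fit (adjusted p = 0.0949, range 0.00027 to 0.0949).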

How the results depend on the processing

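Of 90 values of the 10 genes (CD1530 against AGN at 5 time points, and the first and last time point of each condition against PM), 61 were called, 52 of them under every alternative, 9 lost the call under at least 1 and 0 changed sign. Of the 29 not called, 8 became called and 9 changed sign under at least 1. Of 70 called steps and interactions, computed per gene as an addition after the data were seen, 56 kept the call under every alternative and 0 changed sign. With only the compared groups in the fit, fewer samples set the spread. It then called 804 instead of 329 genes at D6.25 and 1236 instead of 3076 at D6.75, 2 instead of 5 of the 10 genes at D6.75, and for the change of the difference 1 instead of 2 (D6.25 to D6.75), 1 instead of 2 (D6.75 to D7.5) and 2 instead of 1 (D7.5 to D8.5). Leaving out 1 library each, the 10 genes gave 0 to 2 calls and all genes 196 to 276 at D6.25. The count was 0 without replicate 1 of CD1530 D6.25 and without replicate 3 of AGN D6.25, and 1 without replicate 1 of AGN D6.25. Counts of changed differences ran from 1 to 4 (D6.25 to D6.75, with 4 without replicate 1 of CD1530 D6.75 and 1 without replicates 2 or 3 of CD1530 D6.25, any replicate of AGN D6.25, replicate 3 of CD1530 D6.75 or replicate 3 of AGN D6.75) and from 1 to 2 (D7.5 to D8.5, with 2 without replicate 2 of CD1530 D8.5). The values that changed sign were these. Jag1 at D6.75 was 0.0023, -0.00073 with DESeq2 size factors, -0.00078 with DESeq2 and -0.04 to 0.06 over left-out libraries. At D10 Jag1 was -0.0038, 0.03 with library size only, 0.01 with only the compared groups and -0.03 to 0.02 over left-out libraries, and Hes1 was -0.01, 0.03, 0.01 and -0.05 to 0.05. Over left-out libraries Hes1 ran from -0.02 to 0.06 at D6.25 and from -0.03 to 0.16 at D8.5, Notch1 from -0.07 to 0.25 and Notch2 from -0.27 to 0.05 at D6.75, and Nrarp from -0.29 to 0.03 at D7.5 and from -0.03 to 0.41 at D10. Between conditions another scaling moved the median gene by at most 0.04 log2 units. Against PM, library size as the only scaling moved it by 0.06 and 0.05 at D6.25 and by -0.11 and -0.15 at D10 (CD1530 and AGN). Replicate numbers did not pair the samples: the deviations of same-numbered libraries correlated at a median of -0.001 (-0.324 to 0.268), and 11 of 33 libraries correlated best with their own number. With the replicate number as a block the 10 genes gave 2, 5, 4, 6 and 5 calls between conditions at the 5 time points, as without it, and 5 instead of 6 for CD1530 D7.5 against D6.75, where Hes1 was lost.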
